A study of Mus musculus with 12 samples.

Results

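The 10 genes described here encode Fc receptors, their signalling adaptor and surface or secreted proteins used as markers of monocytes and macrophages. They are Fcgr1, Fcgr2b, Fcgr3, Fcgr4, Fcer1g, Itgam, Cd14, Adgre1, Lyz2 and Apoe, taken by symbol from the 40481 genes of the deposited table, each with 1 gene identifier. RNA was sequenced from mouse hematopoietic stem cells (HSCs) in 12 libraries, 4 groups of 3. The genotype was WT or iE/R, an inducible ETV6-RUNX1 fusion, and the source was the fetal liver of E14.5 embryos or the bone marrow of mice aged 8 weeks. Every group, WT included, spent 3 days in an HSC expansion culture with doxycycline at 1 µg/mL, the usual switch of tetracycline-inducible transgenes. ETV6-RUNX1 joins the genes of a pair of blood transcription factors and is known from childhood leukemia. The labels do not give the locus or promoter of the transgene, the sex or number of animals, or whether libraries of a group came from separate animals. The p-values below therefore measure the spread between libraries, which may be technical.

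Fc receptors bind the constant part of antibodies and link antibody-coated particles to uptake and signalling by myeloid cells. In the mouse, Fcgr1, Fcgr3 and Fcgr4 encode activating receptors that need the common gamma chain, the product of Fcer1g, for surface expression and for signalling through its ITAM motif, which recruits the kinase Syk. Fcgr2b encodes the inhibitory receptor, whose ITIM motif recruits phosphatases. Fcgr1 is a textbook interferon-gamma target, and Itgam, Lyz2, Cd14 and Adgre1 are routinely used to recognise monocytes, granulocytes and macrophages.

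Library totals ran from 32.3 to 64.5 M reads, so that 3 reads, taken as the floor, equalled 0.0465 to 0.0928 CPM (reads scaled to a common library total). Floors cover counting error only. Runx1, whose reads from the fusion and the native gene are not separated in the table, was at 110 to 136 CPM in WT and 218 to 244 CPM in ETV6-RUNX1 fetal liver libraries, and at 86.7 to 105 and 143 to 194 CPM in bone marrow. All 15 genes of an HSC marker list passed the filter on low values. WT bone marrow replicates 1 and 2 stood apart by neutrophil granule genes: Ngp was at 36.9 and 31.0 CPM there against 0 in replicate 3, and S100a8 at 49.4, 12.0 and 0.12 CPM. Results in bone marrow are therefore also given without both libraries where that changes a call. Over all genes tested, WT bone marrow replicate 1 differed more from replicates 2 and 3 (Pearson r = 0.979 and 0.977) than those did from each other (0.991). Pairs of ETV6-RUNX1 bone marrow libraries were at 0.974 to 0.980. Among sex-linked genes, Xist spanned 0.175 to 1.27 CPM over bone marrow and 51.7 to 89.3 CPM over fetal liver libraries. Within each source, Xist overlapped between the genotypes. The summed level of 4 Y-linked genes was 64.6 to 119 CPM in WT and 198 to 220 CPM in ETV6-RUNX1 fetal liver. In bone marrow it was 229 to 288 CPM in WT and 268 to 389 CPM in ETV6-RUNX1, with overlap. Both measures thus moved with source, and the Y-linked sum also with genotype in fetal liver. Their part in the results was not tested.

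The upstream sequences of Fcgr1, Fcgr4, Lyz2 and Itgam, which had higher levels in ETV6-RUNX1 fetal liver, are shown with that of Fcer1g, for which no difference by genotype was called. Each runs 5′ to 3′ over the 250 bases before the RefSeq start on GRCm38.p6. The lines are Fcgr1 at chr3:96293970-96294219 (minus strand), Fcgr4 at chr1:171018676-171018925 (plus), Lyz2 at chr10:117282273-117282522 (minus), Itgam at chr7:128062390-128062639 (plus) and Fcer1g at chr1:171234350-171234599 (minus). Capitals mark matches, on either strand, to 4 motifs: GAAA followed by any 2 bases and GAAA (ISRE core), TTCNNNGAA (GAS), GAGGAA (PU.1 core) and TGTGGT (RUNX core).
Fcgr1: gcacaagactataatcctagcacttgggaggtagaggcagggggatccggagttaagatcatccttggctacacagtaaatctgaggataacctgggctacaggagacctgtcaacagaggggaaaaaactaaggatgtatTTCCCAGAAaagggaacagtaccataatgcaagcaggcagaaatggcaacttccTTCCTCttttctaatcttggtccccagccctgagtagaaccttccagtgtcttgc
Fcgr4: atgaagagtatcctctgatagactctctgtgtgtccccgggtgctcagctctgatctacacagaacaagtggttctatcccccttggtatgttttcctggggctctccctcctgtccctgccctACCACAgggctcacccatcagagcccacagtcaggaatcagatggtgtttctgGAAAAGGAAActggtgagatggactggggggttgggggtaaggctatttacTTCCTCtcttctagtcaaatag
Lyz2: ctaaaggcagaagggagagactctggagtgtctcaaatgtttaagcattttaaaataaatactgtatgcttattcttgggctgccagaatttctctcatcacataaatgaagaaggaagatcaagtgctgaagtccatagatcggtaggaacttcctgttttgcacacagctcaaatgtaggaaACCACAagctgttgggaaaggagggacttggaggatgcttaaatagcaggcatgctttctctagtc
Itgam: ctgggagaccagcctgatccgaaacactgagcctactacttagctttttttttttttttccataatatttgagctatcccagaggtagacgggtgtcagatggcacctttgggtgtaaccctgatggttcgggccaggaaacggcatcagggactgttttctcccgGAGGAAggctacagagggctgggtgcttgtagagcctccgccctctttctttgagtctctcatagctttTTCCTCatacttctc
Fcer1g: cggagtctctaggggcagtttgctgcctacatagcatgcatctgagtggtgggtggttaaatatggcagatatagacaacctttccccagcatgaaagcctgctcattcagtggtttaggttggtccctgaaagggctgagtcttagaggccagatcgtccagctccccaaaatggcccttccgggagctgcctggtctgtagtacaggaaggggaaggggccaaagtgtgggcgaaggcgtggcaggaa
Of the 10 genes, 8 had such a window. The GAS letters occurred only in that of Fcgr1, as TTCCCAGAA, 109 to 101 bases before the start, against 7.02% of all 32851 windows. The ISRE core occurred only in that of Fcgr4 (73 to 64 bases before the start, 2.98% of all windows). The PU.1 core was found in windows of Fcgr1, Fcgr3, Fcgr4, Itgam and Apoe and in 23.3% of all windows, and the RUNX core in those of Fcgr4 and Lyz2 and in 14.0% of all. No match overlapped another in the sequences shown. The Fcer1g and Fcgr2b windows held none of the 4. A match is a description of the letters, and the motifs were chosen after these sequences and the levels had been seen.

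In fetal liver, 5 of the 9 genes tested were higher in the cells with ETV6-RUNX1 and none was lower, where 24.8% of the 14271 genes tested were higher, 18.3% lower and 43.1% changed in either direction (limma, two-sided, Benjamini-Hochberg adjusted p under 0.05). The 5 were Fcgr1, Lyz2, Itgam, Adgre1 and Cd14. In bone marrow 3 of 9 were higher, Itgam, Fcgr2b and Cd14, and none was lower. There 14.4% of all genes tested were higher, 4.93% lower and 19.4% changed in either direction. Libraries of the genotypes did not overlap for 5 of the 9 in fetal liver (55.6% of all genes) and for 4 in bone marrow (34.5% of all genes), so these counts of non-overlap lay near the background. Fcgr4 did not reach 1 CPM in any library and was not tested. Cd14 and Adgre1 passed the filter on low values (1 CPM in 3 libraries) only through ETV6-RUNX1 libraries and so had to differ; of the other 7 genes, 3 were called in fetal liver and 2 in bone marrow. These counts and medians are descriptions. The median log2 fold change of the 9 was 1.15 in fetal liver (0.08 over all genes tested) and 0.62 in bone marrow (0.13 over all). In bulk RNA, fewer cells of a type and less RNA per cell cannot be told apart, and the same holds for more cells and more RNA.

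**Figure D1:**
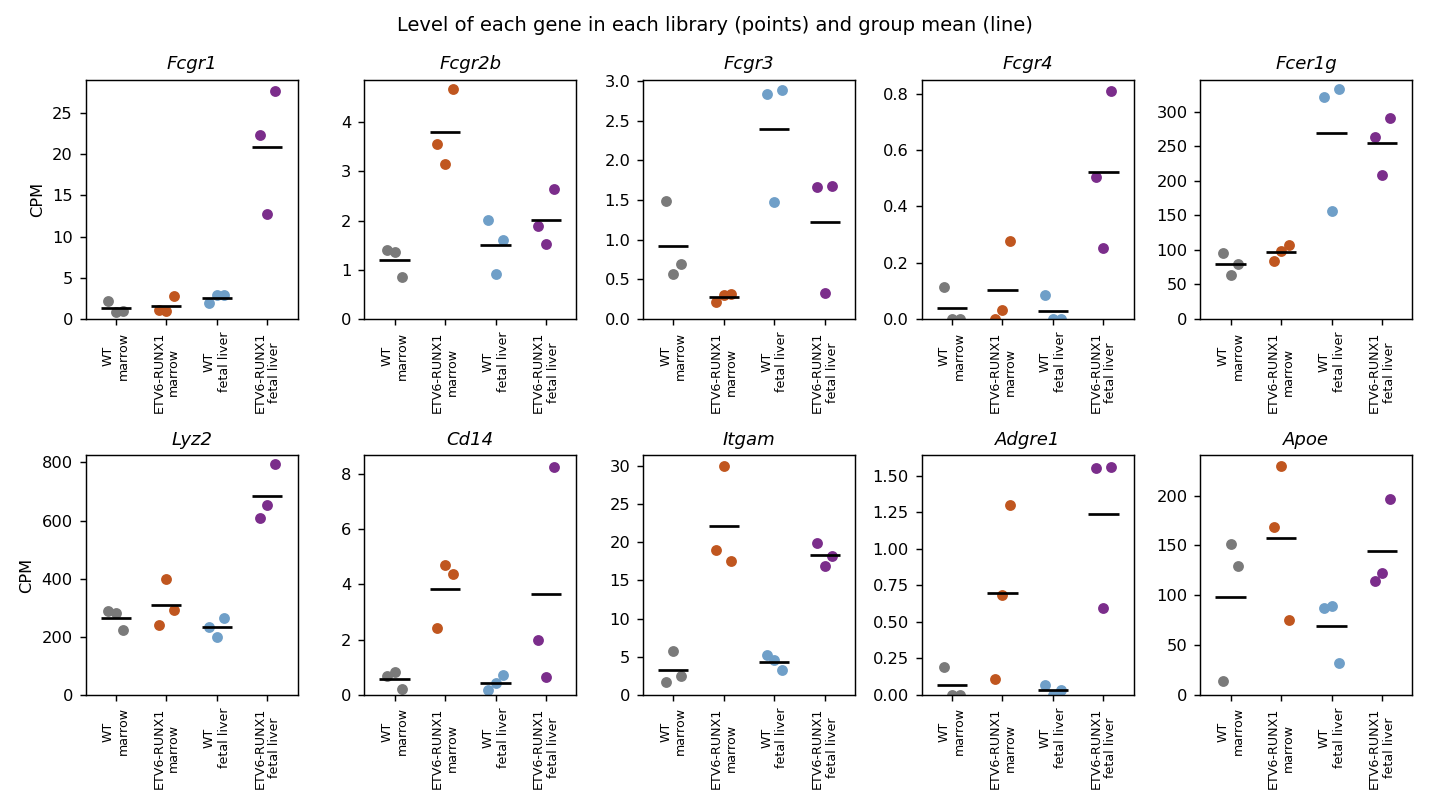
CPM of each of the 10 genes (vertical axis, from 0, scaled per gene) in each of the 12 libraries (points) by group, with the group mean as a line. Fcgr1 and Lyz2 stand out in ETV6-RUNX1 fetal liver, at 12.8 to 27.7 and 609 to 795 CPM, while Itgam is raised in both ETV6-RUNX1 groups and Fcer1g separates the sources.

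Fcgr1 encodes the high-affinity IgG receptor CD64 (chromosome 3, 96282909 to 96293969, minus strand, GRCm38; gene ENSMUSG00000015947). Its level was 1.99, 2.86 and 2.87 CPM in the WT fetal liver libraries and 22.3, 12.8 and 27.7 CPM in the ETV6-RUNX1 ones. In WT bone marrow it was 2.13, 0.857 and 0.996 CPM, and in ETV6-RUNX1 bone marrow 1.13, 0.927 and 2.82 CPM. All 3 ETV6-RUNX1 fetal liver libraries lay above every other library, and the other groups lay close together. The ratio of means in fetal liver was 8.13, and the log2 fold change of CPM + 1 was 2.56 ± 0.32 (SE, n = 3 per group; limma adjusted p = 2.29e-05). Fold changes on this scale understate those of genes at low levels. In bone marrow the log2 difference was 0.14, with a 95% interval from -0.53 to 0.82 (limma adjusted p = 0.777). The effect in fetal liver exceeded that in bone marrow by 2.42 ± 0.45 (limma adjusted p for the interaction = 0.00399, where 9.19% of genes passed). Fcgr1 kept this call under all 21 alternatives run for it, with an adjusted p of at most 0.0347.

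Fcgr4 encodes a further activating IgG receptor (chromosome 1, 171018920 to 171029761, plus strand). It was covered by 24, 14 and 27 reads in the ETV6-RUNX1 fetal liver libraries, which is 0.504, 0.251 and 0.810 CPM. In WT fetal liver 4, 0 and 0 reads were counted, in WT bone marrow 6, 0 and 0, and in ETV6-RUNX1 bone marrow 0, 1 and 9. Every WT library thus had at most 6 reads of Fcgr4. With all 29278 genes with reads tested, the log2 difference of Fcgr4 in fetal liver was 0.55 ± 0.13 (limma adjusted p = 0.0129), and in bone marrow 0.08 (adjusted p = 0.782). No ratio is given, since most WT libraries were at or under the floor.

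Fcgr3, the low-affinity activating receptor (chromosome 1, 171051174 to 171064935, minus strand), did not follow Fcgr1. It was at 2.83, 1.47 and 2.88 CPM in WT and 1.66, 0.323 and 1.68 CPM in ETV6-RUNX1 fetal liver. The bone marrow values were 1.49, 0.565 and 0.698 CPM in WT and 0.216, 0.309 and 0.309 CPM in ETV6-RUNX1, so that the groups overlapped in fetal liver only. The log2 differences were -0.65 ± 0.28 in fetal liver (limma adjusted p = 0.0774) and -0.55 ± 0.28 in bone marrow (adjusted p = 0.184), neither past the threshold. In reads, bone marrow had 28 to 78 per WT library and 8 to 10 per ETV6-RUNX1 library, and DESeq2 on the recovered reads did pass there (adjusted p = 0.025, log2 fold change -1.89). In fetal liver the difference passed without WT replicate 2 (-0.87, limma adjusted p = 0.0411) and with quantile normalization (-0.89, adjusted p = 0.0245).

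Fcgr2b, the inhibitory receptor (chromosome 1, 170958617 to 170976547, minus strand), was higher in ETV6-RUNX1 cells from bone marrow. It was at 1.41, 1.36 and 0.847 CPM in WT and 3.57, 3.15 and 4.67 CPM in ETV6-RUNX1 bone marrow. The fetal liver values were 2.01, 0.920 and 1.60 CPM in WT and 1.89, 1.53 and 2.64 CPM in ETV6-RUNX1. The bone marrow groups did not overlap and the fetal liver groups did. The bone marrow ratio of means was 3.15, with a log2 fold change of 1.12 ± 0.23 (limma adjusted p = 0.00458). In fetal liver it was 0.27, with a 95% interval from -0.21 to 0.76 (adjusted p = 0.348). The effects were not shown to differ between sources (interaction -0.84 ± 0.32, limma adjusted p = 0.11). In bone marrow the inhibitory receptor thus rose while values of the activating Fcgr3 were lower without passing the main test.

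Reads shared between these receptor genes could affect their values. In GENCODE M21 transcripts, 2.92% of the 50-base words of Fcgr2b occur in Fcgr3 and 9.58% of those of Fcgr3 in Fcgr2b, while Fcgr4 shares none with either. An antisense gene, Gm38204, shares 155 exonic bases with Fcgr2b, and the use of strand in counting is not given in the sources used here, so reads of both cannot be told apart.

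Fcer1g, the common gamma chain (chromosome 1, 171229572 to 171234365, minus strand), was more abundant per kb of exon than any of the IgG receptors in every group. It was at 95.2, 63.4 and 79.3 CPM in WT and 84.7, 99.0 and 107 CPM in ETV6-RUNX1 bone marrow. In fetal liver it was at 321, 156 and 333 CPM in WT and 263, 209 and 291 CPM in ETV6-RUNX1. Both genotypes overlapped within each source, and every fetal liver library was above every bone marrow library. The log2 difference by genotype was -0.02 in fetal liver (95% interval -0.55 to 0.51, limma adjusted p = 0.959) and 0.30 in bone marrow (-0.23 to 0.83, adjusted p = 0.421). Between sources, Fcer1g was higher in fetal liver by 1.69 ± 0.25 in WT (adjusted p = 0.000451) and by 1.38 ± 0.25 in ETV6-RUNX1 (adjusted p = 0.000944). It was the only 1 of the 9 genes called between the WT sources, where 11.1% of all genes passed. Age, tissue and the sex-linked genes given above moved with source and cannot be told apart.

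Tyrobp encodes DAP12, the other widely used ITAM adaptor of myeloid cells, and its calls differed from those of Fcer1g. Its level was 8.82, 5.20 and 10.3 CPM in WT and 34.7, 40.9 and 40.5 CPM in ETV6-RUNX1 fetal liver. Its bone marrow values were 3.83, 3.43 and 1.69 CPM in WT and 2.19, 2.26 and 0.990 CPM in ETV6-RUNX1. Tyrobp rose by 2.17 ± 0.28 in fetal liver (log2, SE; limma adjusted p = 3.58e-05), and in bone marrow its difference was -0.49 (adjusted p = 0.231). The interaction was 2.66 ± 0.40 (adjusted p = 0.000959).

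The genes Fcgr2b, Fcgr4, Fcgr3 and Fcer1g lie in that order within 276 kb of chromosome 1, which holds 17 annotated genes, 11 of them protein-coding. The neighbours did not move as a block. Sdhc, a mitochondrial enzyme subunit, fell by 0.63 in fetal liver (limma adjusted p = 0.00156), and Tomm40l fell by 0.79 (adjusted p = 0.00186). Pcp4l1 rose there by 2.37 ± 0.23 (adjusted p = 2.29e-06) and in bone marrow by 1.59 ± 0.23 (adjusted p = 0.000556). These neighbours were named after their values had been seen.

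**Figure D2:**
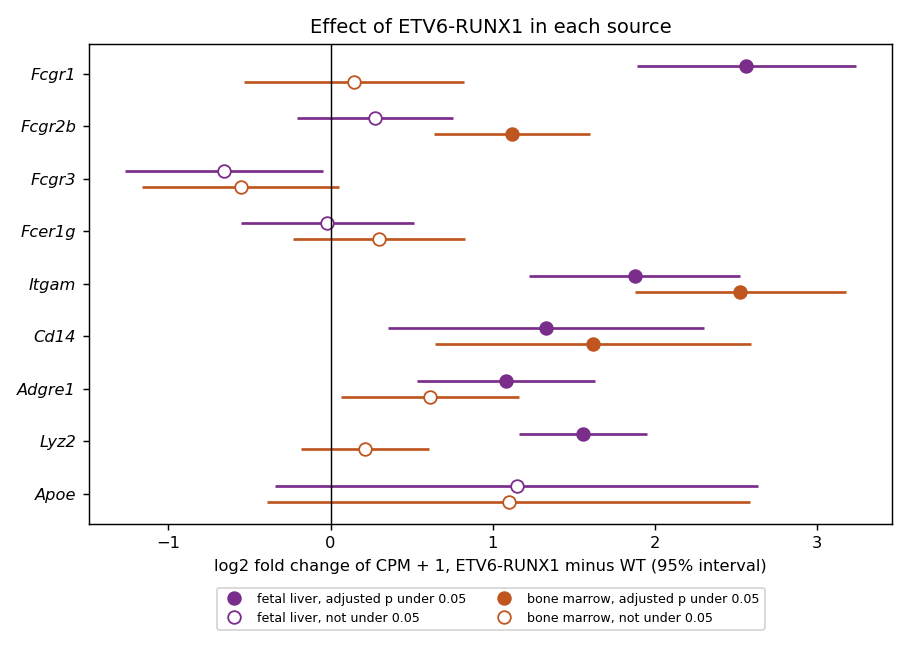
Log2 fold change of CPM + 1 between ETV6-RUNX1 and WT (horizontal axis) for the 9 genes tested, in fetal liver (purple) and bone marrow (orange), with 95% intervals from limma; filled points have an adjusted p under 0.05. Fcgr1 and Lyz2 differ between the sources (2.56 against 0.14 and 1.56 against 0.21). The intervals, which are not adjusted for the number of genes, lie above 0 in both sources for Itgam, Cd14 and Adgre1. Cd14 and Adgre1 passed the filter on low values only through ETV6-RUNX1 libraries and so had to differ.

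Itgam encodes CD11b, the alpha chain of complement receptor Mac-1 (chromosome 7, 128062640 to 128118491, plus strand). In fetal liver it was at 5.17, 4.52 and 3.30 CPM in WT and 20.0, 16.9 and 18.2 CPM in ETV6-RUNX1. In bone marrow it was at 1.62, 5.71 and 2.42 CPM in WT and 19.0, 30.0 and 17.5 CPM in ETV6-RUNX1. Each of the 6 ETV6-RUNX1 libraries was higher than every one of the 6 WT libraries. The ratios of means were 4.24 and 6.83. The log2 fold change was 1.87 ± 0.30 in fetal liver (limma adjusted p = 0.00023) and 2.53 ± 0.30 in bone marrow (adjusted p = 0.00021), and both calls held under all 22 alternatives run for them. The effects were not shown to differ (interaction -0.65 ± 0.43, adjusted p = 0.351). Gm49368, which the deposited table does not list, shares 3450 of the 5024 exonic bases of Itgam on the same strand in GENCODE M21, so its reads cannot be told apart if the annotation used held it.

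Itgb2 encodes the beta chain CD18, without which CD11b does not reach the cell surface. It moved in opposite directions by source. Its level was 101, 85.6 and 82.6 CPM in WT and 199, 195 and 149 CPM in ETV6-RUNX1 fetal liver, but 47.7, 60.6 and 66.8 CPM in WT and 27.0, 25.9 and 24.0 CPM in ETV6-RUNX1 bone marrow. The groups did not overlap in either source. Itgb2 rose by 1.00 ± 0.16 in fetal liver (limma adjusted p = 0.000204), fell by 1.15 in bone marrow (SE 0.16, adjusted p = 0.000449), and the interaction was 2.14 ± 0.22 (adjusted p = 6.13e-05). In bone marrow the alpha chain RNA thus rose while that of its partner fell.

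**Figure D3:**
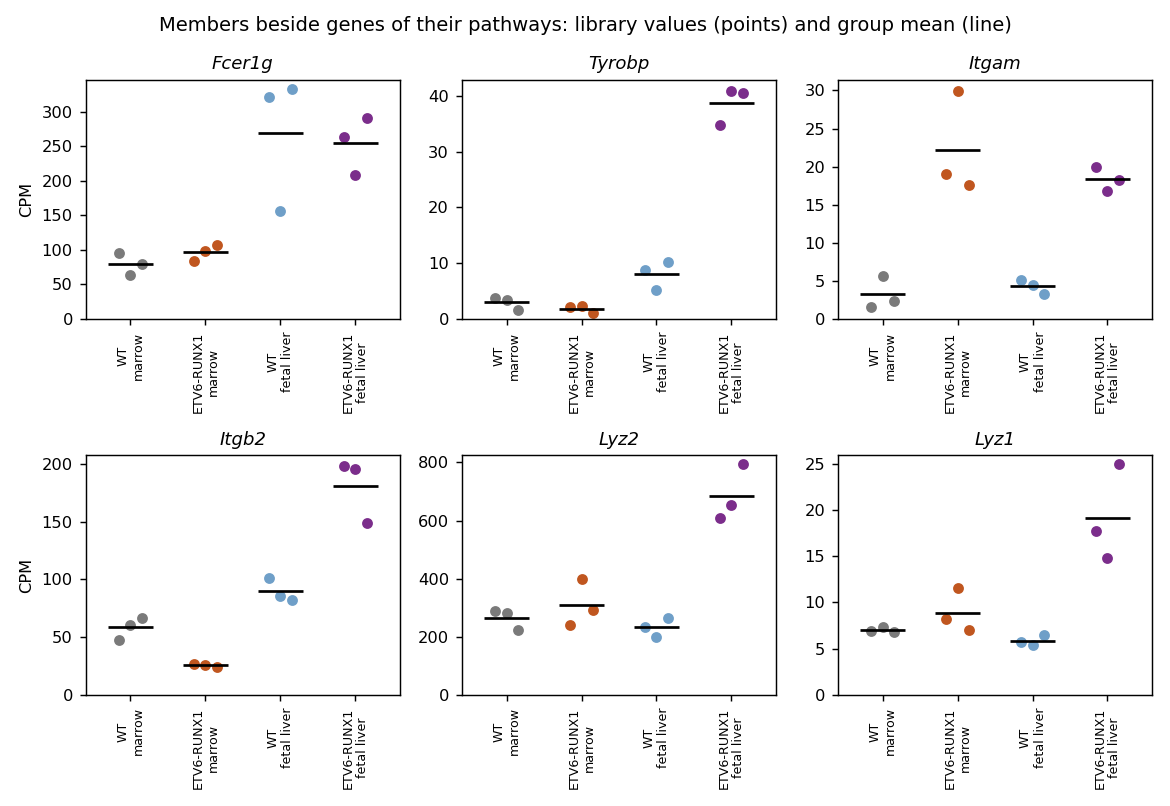
CPM (vertical axis, from 0, scaled per gene) of Fcer1g, Itgam and Lyz2 beside Tyrobp, Itgb2 and Lyz1 in each library (points), with group means as lines. Tyrobp rises in ETV6-RUNX1 fetal liver while Fcer1g does not, and Itgb2 is lowest in ETV6-RUNX1 bone marrow (24.0 to 27.0 CPM), where Itgam is at 17.5 to 30.0 CPM.

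Cd14 (chromosome 18), the coreceptor that hands lipopolysaccharide to the TLR4 complex, was low in WT and uneven in ETV6-RUNX1 cells. It was at 0.173, 0.435 and 0.713 CPM in WT and 2.00, 0.646 and 8.28 CPM in ETV6-RUNX1 fetal liver. Bone marrow WT libraries were at 0.667, 0.837 and 0.199 CPM and ETV6-RUNX1 ones at 2.43, 4.70 and 4.39 CPM. The groups overlapped in fetal liver and not in bone marrow. The log2 fold change was 1.33 ± 0.45 in fetal liver (limma adjusted p = 0.0294) and 1.61 ± 0.45 in bone marrow (adjusted p = 0.0243). The fetal liver call ended without ETV6-RUNX1 replicate 3 (0.64, adjusted p = 0.121), WT replicate 1 (1.19, adjusted p = 0.0883) or WT replicate 2 (1.34, adjusted p = 0.0651). The bone marrow call ended without WT replicate 3 (1.43, adjusted p = 0.0768), ETV6-RUNX1 replicate 2 (1.48, adjusted p = 0.0864) or ETV6-RUNX1 replicate 3 (1.52, adjusted p = 0.0532). Without both WT replicates 1 and 2, which left a single WT bone marrow library, the difference was 1.98 and the call also ended. With no filter on low values neither call passed (adjusted p = 0.115 in fetal liver and 0.1 in bone marrow).

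Tlr4 and Ly96 encode the receptor and coreceptor that CD14 serves. Tlr4 rose in fetal liver from 5.05 ± 1.17 CPM (SD, n = 3) to 21.3 ± 2.82 CPM (log2 1.89 ± 0.25 SE, limma adjusted p = 4.54e-05). The bone marrow difference in Tlr4 was 0.42 (adjusted p = 0.253). Ly96, which encodes MD-2, rose in both (0.74, adjusted p = 0.0111 and 0.84, adjusted p = 0.0138).

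Adgre1, the adhesion receptor recognised by the F4/80 antibody (chromosome 17, 57358691 to 57483527, plus strand), passed the filter on low values only through ETV6-RUNX1 libraries. In fetal liver it had 3, 0 and 2 reads in WT and 74, 33 and 52 reads in ETV6-RUNX1, the latter 1.55, 0.592 and 1.56 CPM. Bone marrow libraries had 10, 0 and 0 reads in WT and 4, 22 and 42 in ETV6-RUNX1, the latter 0.108, 0.680 and 1.30 CPM. It was thus nearly undetected in WT, and the genotypes overlapped in bone marrow but not in fetal liver. The log2 difference in fetal liver was 1.08 ± 0.26 (limma adjusted p = 0.00372). Its size depended on the scale, from 0.97 to 5.24 over 21 alternatives, with a call in each. In bone marrow the difference was 0.62 ± 0.26 (limma adjusted p = 0.104), which passed with DESeq2 (3.24, adjusted p = 0.0323) and without ETV6-RUNX1 replicate 1 (0.89, limma adjusted p = 0.0281).

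Lyz2 encodes lysozyme M, a secreted enzyme that cleaves bacterial cell walls (chromosome 10, 117277331 to 117282321, minus strand). It was abundant in all libraries. Its level was 233, 200 and 265 CPM in WT and 609, 655 and 795 CPM in ETV6-RUNX1 fetal liver. The WT bone marrow libraries were at 287, 280 and 223 CPM, and the ETV6-RUNX1 ones at 239, 399 and 293 CPM. The 3 ETV6-RUNX1 fetal liver libraries lay above all others. The fetal liver ratio of means was 2.95 and the log2 fold change 1.56 ± 0.18 (limma adjusted p = 1.53e-05). The bone marrow log2 difference was 0.21 (95% interval -0.18 to 0.61, adjusted p = 0.437). The effect was larger in fetal liver by 1.34 ± 0.26 (interaction, limma adjusted p = 0.00551). Without both WT bone marrow replicates 1 and 2, the interaction was 1.11 and missed the threshold. That fit left a single WT bone marrow library, assumed to vary like the other groups.

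Lyz1, the neighbouring lysozyme gene, was at 2.26% to 3.43% of the CPM of Lyz2 in each of the 12 libraries. In fetal liver it was at 5.86 ± 0.57 CPM in WT and 19.1 ± 5.21 CPM in ETV6-RUNX1 (SD, n = 3), a rise of 1.53 ± 0.22 on the log2 scale (SE, limma adjusted p = 7.77e-05). The Lyz1 values are uncertain, since 16.1% of its 50-base words occur in Lyz2 and how the authors counted shared reads is not given in the sources used here.

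Apoe encodes apolipoprotein E, a lipid carrier made by macrophages and liver cells (chromosome 7, 19696109 to 19699188, minus strand). It was at 87.1, 89.4 and 31.6 CPM in WT and 114, 123 and 197 CPM in ETV6-RUNX1 fetal liver. Bone marrow values were 14.2, 151 and 129 CPM in WT and 169, 230 and 74.7 CPM in ETV6-RUNX1. The fetal liver groups did not overlap, and WT bone marrow replicate 1 was the lowest of all 12 libraries. The log2 difference was 1.15 ± 0.69 in fetal liver (limma adjusted p = 0.198) and 1.10 ± 0.69 in bone marrow (adjusted p = 0.282). The spread was shared over all 4 groups. Without WT bone marrow replicate 1 the fetal liver difference kept its size and passed (1.15, limma adjusted p = 0.0301), as it did in a fit of the 6 fetal liver libraries (adjusted p = 0.0171). The bone marrow difference was 0.03 without WT replicate 1 alone (limma adjusted p = 0.978) and 1.69 without WT replicate 2 (adjusted p = 0.13).

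Levels per kb of merged exon, with lengths from GENCODE M21, put Lyz2, Fcer1g and Apoe above the other genes in every group. In WT fetal liver Fcer1g led at 309 ± 113 CPM per kb (SD, n = 3) before Lyz2 at 177 ± 24.7, and their ranges overlapped. In ETV6-RUNX1 fetal liver the order was Lyz2 at 521 ± 73.4, Fcer1g at 291 ± 47.5, Apoe at 67.7 ± 21.2, Fcgr1 at 8.08 ± 2.92 and Itgam at 3.65 ± 0.31 CPM per kb, with no overlap between neighbours. In bone marrow Lyz2 led at 200 ± 26.6 in WT and 236 ± 62.0 in ETV6-RUNX1, with Fcer1g next at 90.7 ± 18.2 and 111 ± 12.9 CPM per kb. Fcer1g and Apoe overlapped in ETV6-RUNX1 bone marrow. Among the IgG receptors, Fcgr3 had the highest mean in WT fetal liver (1.38 ± 0.46 CPM per kb), with a range that overlapped that of Fcgr1, and Fcgr1 led in ETV6-RUNX1 fetal liver. In ETV6-RUNX1 bone marrow Fcgr2b (0.66 ± 0.14) and Fcgr1 (0.63 ± 0.40) led together, with overlapping ranges.

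Between sources in ETV6-RUNX1 cells, Fcgr1 (3.07 ± 0.32, limma adjusted p = 7.62e-06), Fcer1g and Lyz2 (1.16 ± 0.18, adjusted p = 0.000316) were higher in fetal liver. Fcgr2b was lower there (-0.67 ± 0.23, adjusted p = 0.0376). These 4 of 9 stand beside 28.6% of all genes. Fcgr3 did not overlap between the sources and was higher in fetal liver by 0.73 ± 0.28, short of the threshold (limma adjusted p = 0.0698). It passed with edgeR (2.28, adjusted p = 0.0228), DESeq2 (2.29, adjusted p = 0.00393), a pseudocount of 0.1 (1.55, limma adjusted p = 0.048) and without ETV6-RUNX1 fetal liver replicate 2 (1.06, limma adjusted p = 0.00912). This comparison shares its libraries with the genotype comparisons. The Fcgr2b call was lost in 11 of 21 alternatives, with adjusted p from 0.0254 to 0.175, among them median-of-ratios scaling (-0.54, adjusted p = 0.107) and leaving out ETV6-RUNX1 bone marrow replicate 1 (-0.70) or 3 (-0.55), or fetal liver replicate 1 (-0.65) or 2 (-0.55).

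The wider pathways were read from lists. Some of their genes, such as Egr2, were also under 1 CPM in every WT library, so the counts are descriptions, to be set beside the 43.1% of all genes called in fetal liver and 19.4% in bone marrow, and beside medians over all genes of 0.08 and 0.13. Of the list of ITAM and ITIM signalling, 29 of 30 genes were tested, and 18 were higher and 2 lower in ETV6-RUNX1 fetal liver against 3 higher and 1 lower in bone marrow. The list medians were 0.69 and 0.21 (log2). The 4 calls of 29 in bone marrow were a smaller share than the 19.4% of all genes, and the 20 in fetal liver a larger one than 43.1%. Cblb, a ubiquitin ligase that restrains such signalling, was at 11.2 ± 1.20 CPM (SD, n = 3) in WT and 36.7 ± 5.48 CPM in ETV6-RUNX1 fetal liver (1.62 ± 0.18 on the log2 scale, SE; limma adjusted p = 9.46e-06). For bone marrow, the adaptor Bcl10 rose by 0.58 (adjusted p = 0.00702), the kinase Fyn by 0.53 (adjusted p = 0.0286) and the adaptor Dok1 by 0.40 (adjusted p = 0.037).

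Among 13 other Fc receptor genes, 5 were tested, of which 4 were higher in fetal liver (median 1.42), and in bone marrow 2 were higher and 1 lower (median 0.74). The lower gene, Fcer1a, passed the filter on low values only through WT bone marrow libraries and so had to differ. Trim21, the cytosolic antibody receptor, rose in fetal liver by 1.68 ± 0.27 (log2, SE), to 6.71 ± 0.93 CPM (SD, n = 3; limma adjusted p = 0.000225). Fcgrt, the neonatal Fc receptor that recycles IgG, rose in fetal liver by 0.66 (adjusted p = 0.0121) and in bone marrow by 0.74 (adjusted p = 0.0158).

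Of the lipopolysaccharide receptor pathway, 16 of 18 genes were tested, with 8 higher in fetal liver (median 0.49) and 5 in bone marrow (median 0.17), and none lower. The fetal liver share was near the 43.1% of all genes called in either direction, and the bone marrow median near the 0.13 of all genes. Irak2, a kinase of the pathway, rose by 2.15 ± 0.28 in fetal liver (limma adjusted p = 4.08e-05). The cytokine gene Tnf rose in fetal liver by 1.89 ± 0.29 (adjusted p = 0.000171) and in bone marrow by 1.05 ± 0.29 (adjusted p = 0.0243), and Tlr2 in bone marrow by 0.96 ± 0.26 (adjusted p = 0.0195).

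Of 15 genes of leukocyte integrins and adhesion, 13 were tested, with 8 higher and none lower in fetal liver (median 0.58) and 4 higher and 1 lower, Itgb2, in bone marrow (median 0.20). Icam1, a ligand of Mac-1, rose in both sources, from 21.4 ± 4.82 to 84.8 ± 21.7 CPM in fetal liver (limma adjusted p = 2.71e-05) and from 28.5 ± 5.44 to 105 ± 34.6 CPM in bone marrow (adjusted p = 0.00037). In fetal liver Itga4 rose by 1.09 (adjusted p = 6.62e-05) and Tln1, which links integrins to actin, by 1.26 (adjusted p = 0.000184). Selplg, the P-selectin ligand, rose in bone marrow by 0.64 (adjusted p = 0.00634).

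Of 21 genes of APOE and lipid transport, 17 were tested, with 8 higher in fetal liver (median 0.47) and 4 in bone marrow (median 0.19), and none lower. Both shares were near those of all genes called in either direction, 43.1% and 19.4%. Lpl, the lipase of lipoprotein triglycerides, was at 3.66 ± 0.71 CPM in WT and 203 ± 100 CPM in ETV6-RUNX1 fetal liver (5.33 ± 0.31, limma adjusted p = 1.87e-08). Lrp1, a receptor for APOE particles, rose there by 1.29 (adjusted p = 9.52e-05) and the cholesterol exporter Abca1 by 2.06 (adjusted p = 0.000195). In bone marrow Vldlr rose by 1.30 (adjusted p = 0.0165), the sterol-sensing receptor Nr1h2 by 0.89 (adjusted p = 0.00234) and Apobr by 0.60 (adjusted p = 0.0403).

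Of 8 further lysozymes and adhesion receptors 6 were tested, with 4 higher and 1 lower in fetal liver (median 1.07), and 1 of each in bone marrow (median 0.20). Adgrl4 rose in both sources (1.22, limma adjusted p = 0.000994 and 0.86, adjusted p = 0.0217), and Adgrg3 fell in both, by 1.70 (adjusted p = 0.00136) and by 1.19 (adjusted p = 0.0279).

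Of 24 myeloid regulators, 18 were tested, with 10 higher and 1 lower in fetal liver (median 1.08) and 8 higher and none lower in bone marrow (median 0.64). Csf2rb, the shared beta chain of several cytokine receptors, rose in fetal liver from 101 ± 22.9 to 511 ± 27.8 CPM (limma adjusted p = 5.83e-08). Egr2, which entered the test only through ETV6-RUNX1 libraries, was at 0.30 ± 0.26 and 9.26 ± 3.98 CPM. In bone marrow Runx1 rose by 0.81 (adjusted p = 0.00178) and Bhlhe40 by 1.01 (adjusted p = 0.00309). Runx1 is counted among the higher genes in both sources, and its reads from the fusion and the native gene are not separated. Spi1, which encodes PU.1 and was named after its value had been seen, rose by 1.38 ± 0.27 in fetal liver (adjusted p = 0.000953) and by 1.37 ± 0.27 in bone marrow (adjusted p = 0.00386).

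Marker lists of mature myeloid cells did not all move in the same direction. The monocyte, tissue macrophage and dendritic cell sums were higher with ETV6-RUNX1 in both sources, and the neutrophil sum was lower in fetal liver. Counts of called markers, here and below, are descriptions. Of all genes tested, 24.8% were higher and 18.3% lower in fetal liver, and 14.4% and 4.93% in bone marrow. The summed level of 19 monocyte markers was 137 to 142 CPM in WT and 511 to 827 CPM in ETV6-RUNX1 fetal liver, and 160 to 249 and 303 to 502 CPM in bone marrow. Of 11 tested, 7 were higher and 1 lower in fetal liver, and 5 higher and 1 lower in bone marrow, with S100a4, Cd68, Ms4a6b, Ms4a6c or F13a1 the most abundant. The lower marker was Fn1 in both sources. Members of the list differed in level. Ccr2 was at most 1.59 CPM, Cx3cr1 at most 0.562 CPM and Ly6c2 at most 1.47 CPM in any library other than WT bone marrow replicate 1, where Ly6c2 was at 4.76 CPM. In fetal liver, Csf1r, the M-CSF receptor, rose from 0.82 ± 0.52 CPM (SD, n = 3) by 2.59 ± 0.27 on the log2 scale (SE). There Cybb, a subunit of the phagocyte oxidase, rose from 1.44 ± 0.50 to 41.5 ± 18.9 CPM, and Ctss, a lysosomal protease, from 0.72 ± 0.51 to 104 ± 49.7 CPM. Mpeg1 had 0.06 ± 0.03 and 7.08 ± 2.27 CPM, under 1 CPM in every WT library. These genes were named after their values had been seen. The 18 tissue macrophage markers summed to 16.9 to 17.8 CPM in WT and 160 to 196 CPM in ETV6-RUNX1 fetal liver, and to 26.4 to 32.5 and 59.8 to 96.7 CPM in bone marrow. Of 7 tested, 4 were higher and none lower in fetal liver, and 3 higher and 1 lower in bone marrow.

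In both ETV6-RUNX1 groups the most abundant genes of the macrophage list were the iron-handling genes Hmox1 and Slc40a1, and Spic. In WT they were Hmox1, Axl and Mrc1 in fetal liver and Hmox1, Slc40a1 and Cd163 in bone marrow. C1qa, C1qb, Clec4f, Marco and Vsig4 stayed at or under 0.311 CPM in every library. The 16 neutrophil and granule markers summed to 274 to 366 CPM in WT and to 76.9 to 99.4 CPM in ETV6-RUNX1 fetal liver, lower without overlap. In both fetal liver groups 4 of the 16 averaged 1 CPM or more, and Prtn3, Mpo and Csf3r were the most abundant. In bone marrow the sums of the 16 overlapped: 425, 349 and 207 CPM in the WT libraries and 194 to 214 CPM in the ETV6-RUNX1 ones. Replicate 3, the WT library without Ngp reads, thus lay within the ETV6-RUNX1 range. Of 4 tested, 2 were lower in fetal liver, and 1 was higher and 2 lower in bone marrow. The 11 dendritic cell markers summed to 30.1 to 41.4 CPM in WT and 171 to 479 CPM in ETV6-RUNX1 fetal liver, and to 50.5 to 80.1 and 250 to 400 CPM in bone marrow. Cd74 alone made up most of the sums with ETV6-RUNX1, at 309 ± 157 CPM (SD, n = 3) in fetal liver and 266 ± 76.2 CPM in bone marrow. Of 7 tested, 5 were higher and 1, Flt3, was lower in fetal liver, and 4 were higher and none lower in bone marrow. The part of such cells in the results above was not tested.

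**Figure D4:**
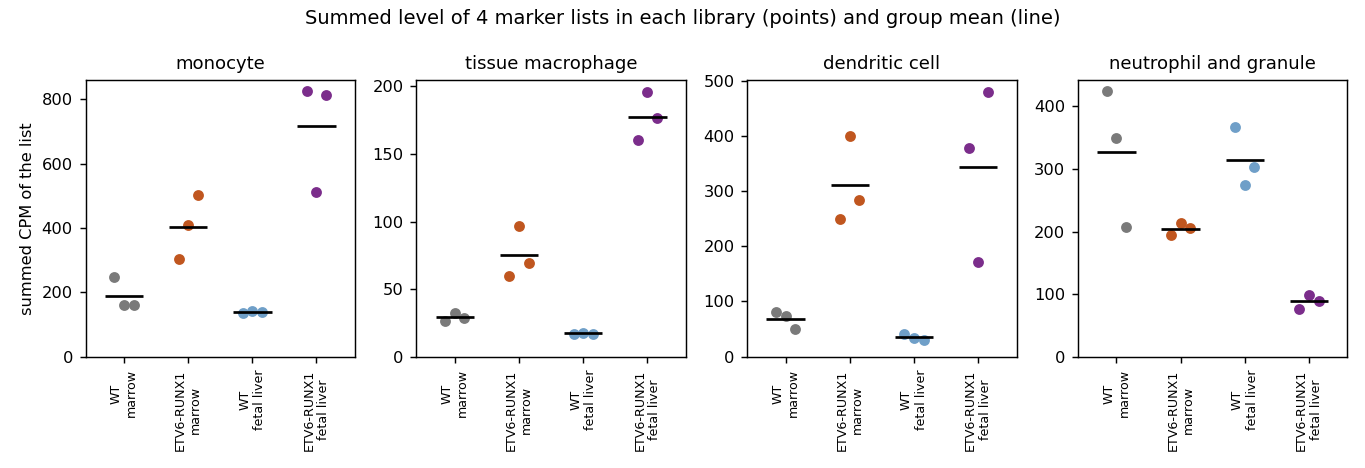
Summed CPM (vertical axis, from 0) of the monocyte, tissue macrophage, dendritic cell and neutrophil marker lists in each library (points), with group means as lines. The first 3 sums are higher in both ETV6-RUNX1 groups than in the WT group of their source, and the neutrophil sum is lowest in ETV6-RUNX1 fetal liver at 76.9 to 99.4 CPM.

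The other marker lists were also read. Their counts stand beside 24.8% of all genes tested higher and 18.3% lower in fetal liver, and 14.4% and 4.93% in bone marrow. In fetal liver 12 of 15 HSC markers were higher and none lower, and in bone marrow 8 were higher and 1 lower. Of 8 erythroid markers tested 6 were higher in fetal liver and 1 was lower in bone marrow, and of 9 megakaryocyte markers 6 were higher and 1 lower in fetal liver and 1 was lower in bone marrow. Mast cell and basophil markers (4 tested) gave 1 in each direction in fetal liver and 1 lower in bone marrow, the latter Fcer1a, the alpha chain of the IgE receptor that also uses Fcer1g. Fcer1a reached 1 CPM only in the 3 WT bone marrow libraries and so had to differ. Of 6 markers of stroma, endothelium and hepatocytes tested, 2 were higher and 1 lower in fetal liver and 1 was lower in bone marrow. Neither the B cell marker tested nor the 2 T and NK cell markers tested passed in either source.

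Genes whose pattern over the 12 libraries was most like each member were ranked by Pearson r of log2(CPM + 1), as a description with no test, since the points share libraries and groups. Fcgr1 was most like Xcr1 (r = 0.98) and Prr5l (0.97), Lyz2 was most like Slc6a12 and Ccl4 (both 0.97), and Itgam was most like Sqstm1 and Hgs (both 0.97). Xcr1 reached 1 CPM only in the ETV6-RUNX1 fetal liver libraries (at most 1.20 CPM). The filter on low values thus fixed that it was high there, as Fcgr1 was. Fcer1g was nearest to Ppard (0.97) and Gbx2 (0.95), Apoe to Dym (0.97) and Fubp3 (0.96), and Adgre1 to Bcl2a1b and Bcl2a1d (both 0.95). Cd14 was nearest to Ddt (0.94) and Ubd (0.93), Fcgr2b to Zfp335os (0.93) and Msl3l2 (0.91), and Fcgr3 to Dnajc17 and Oscar (both 0.92).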

How the data were processed

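The authors deposited CPM values per gene for 12 libraries. The submitters' processing notes name the build GRCm38, STAR 2.5.1a, Subread, featureCounts 1.4.6-p5, Salmon 0.8.2, edgeR, limma and bcl2fastq. The annotation release and use of strand are not given in the sources used here. Repeated entries of 1 gene identifier (276 of 40757) were kept once. All values were whole multiples of 1 read (tolerance 0.01 reads), which gave the reads and totals, 32.3 to 64.5 M reads.

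The 14271 genes that reached 1 CPM in 3 or more libraries were tested as log2(CPM + 1) with limma 3.58.1 (R 4.3.3), with a coefficient per group, all 12 libraries in 1 fit, two-sided, with Benjamini-Hochberg adjustment over all of them and a threshold of 0.05. On data simulated for the fetal liver comparison (14271 genes), 95% of 100 genes changed by 1 on the log2 scale and 100% of 100 changed by 2 were recovered. There 9 unchanged genes were called. Every simulated gene had the same relative spread beyond counting noise, and no further genes were changed. The recovery therefore does not extend to genes as variable as Cd14 or Apoe, nor to data with as many changes as these. Replicate libraries of a group differed by more than sampling noise. Positions and exon lengths came from GENCODE M21, which held 99.4% of the gene identifiers. Promoter sequences came from RefSeq (GRCm38.p6).

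The 10 genes and all lists were chosen with earlier results of these data known. Up to 3 called genes per list and comparison are named, by smallest p, among those that averaged 5 CPM or more in either group and whose libraries did not overlap. Some genes that this rule names are not reported here. For patterns, the 2 most similar genes are named. Alternatives were a pseudocount of 0.1, no filter, a mean of at least 5 CPM, median-of-ratios and quantile scaling, a replicate block, edgeR 4.0.16 and DESeq2 1.42.0 on recovered reads, only 6 libraries, leaving out each library, and, chosen after seeing the data, leaving out WT bone marrow replicates 1 and 2.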

Additional observations from a re-analysis of the deposited data

Results flagged for a closer look

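The effect of ETV6-RUNX1 differed between fetal liver and bone marrow for 2 of the 9 genes tested. For Fcgr1 the effect in fetal liver exceeded that in bone marrow by 2.42 on the log2 scale, and for Lyz2 by 1.34 (limma interaction term, adjusted p = 0.00399 and 0.00551), where 9.19% of all genes passed. Without WT bone marrow replicates 1 and 2 the Lyz2 term was 1.11 and missed the threshold (limma adjusted p = 0.0552). In both cases all 3 ETV6-RUNX1 fetal liver libraries were above the other 9, and the bone marrow groups overlapped.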

How the results depend on the processing

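No call of the 10 genes reversed under any alternative. The number of the 9 genes called in fetal liver was 5 and ran from 4 to 6 when each library was left out. In bone marrow it was 3 and ran from 2 to 4, and between sources it ran from 1 to 2 in WT (main 1) and from 3 to 5 in ETV6-RUNX1 (main 4). The interaction kept a count of 2. With a mean of at least 5 CPM, 5 of the genes were tested, and 3 were called in fetal liver and 1 in bone marrow. DESeq2 called 5 in bone marrow. Over all genes tested, counts ran from 4666 to 6638 in fetal liver (main 6151), from 1520 to 2924 in bone marrow (main 2763, lowest without ETV6-RUNX1 replicate 2), from 731 to 2332 for the interaction (main 1311, highest without WT bone marrow replicate 1), and between sources from 868 to 2781 in WT (main 1591, highest without the same library) and from 2831 to 4611 in ETV6-RUNX1 (main 4088). A fit of only the 6 bone marrow libraries called 1601 genes, and the interaction with no filter called 767. Without both WT bone marrow libraries 1 and 2, 566 genes were called in bone marrow, 812 for the interaction (1 of the 9 genes) and 575 between the WT sources, with fewer samples in the fit. The cause of the other shifts was not tested.

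Scaling moved the split of all calls. In bone marrow 74.5% of calls were higher, against 50.6% with median-of-ratios scaling, 48.5% with quantile normalization, 50.5% with edgeR and 52.0% with DESeq2, and in fetal liver 57.6% against 42.0% with quantile normalization. For the interaction 60.6% became 74.5% (median-of-ratios) and 73.5% (edgeR), between WT sources 30.3% became 41.0% (median-of-ratios) and 41.5% (quantile), and between ETV6-RUNX1 sources 36.3% became 58.7% (median-of-ratios), 47.3% (quantile), 57.9% (edgeR) and 56.0% (DESeq2). Median-of-ratios scaling shifted the median of all genes by -0.13 in bone marrow and by 0.16 between ETV6-RUNX1 sources, and quantile normalization by -0.18 in fetal liver and -0.17 in bone marrow. Every genotype call of the 9 genes kept its direction under these scalings.

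Replicate numbers did not pair the libraries: the correlation of deviations from group means ran from -0.44 to 0.39 over same-numbered pairs. With the number as a replicate block, 2 of the 9 genes were called between the WT sources, the additional one being Fcgr3 (limma adjusted p = 0.0481), and 6 of 9 in fetal liver, again with Fcgr3 (adjusted p = 0.0453), and 5 of 9 between the ETV6-RUNX1 sources, with Fcgr3 once more (0.73, adjusted p = 0.0422).

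Depth limited Fcgr4, Adgre1, Fcgr2b and Fcgr3, which had at most 27, 74, 151 and 186 reads in any library.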
